A study of Mus musculus with 4 samples.

Results

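The SLAM family (signalling lymphocytic activation molecule) is represented here by the 7 receptor genes Slamf1, Cd48, Cd244, Ly9, Slamf6, Slamf7 and Cd84, chosen by name. They are 7 of the 18194 genes that had a probe set with a single gene symbol, and 13 of the 45101 probe sets on the array belong to them. Cd244 is listed in the platform annotation as Cd244a. Slamf1 and Slamf6 have 3 probe sets each, Cd244 and Cd84 have 2 each, and Cd48, Ly9 and Slamf7 have 1 each. The value of a gene is that of its probe set with the highest mean over the 4 arrays, called the main probe set below.

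RNA was measured on 4 Affymetrix arrays from bone marrow cells sorted by flow cytometry for absence of lineage markers and presence of c-Kit and Sca-1, which the labels call haematopoietic stem cells and which hold multipotent progenitors as well. Of the arrays, 2 are labelled WT and 2 Alox15-/-, the latter named for loss of the gene of arachidonate 15-lipoxygenase. All mice were C57BL/6 and aged 8 weeks, and the labels give no treatment, no sex and no description of the deleted allele. Replicates are named biological, but the labels do not say whether each is 1 animal or a pool. The p-values therefore reflect only how far these samples spread, some of which may be technical. In bulk RNA of sorted cells, more cells of a kind and more RNA per cell cannot be told apart.

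SLAM receptors are surface glycoproteins of the immunoglobulin superfamily on blood cells. Most bind a copy of themselves on a neighbouring cell, whereas CD48, held in the membrane by a lipid anchor, is the ligand of CD244. The receptors with a signalling tail recruit small adaptor proteins, of which SAP, the product of Sh2d1a, is the best known, and through them kinases and phosphatases. In mouse bone marrow these proteins sort the early hierarchy: long-term stem cells carry CD150, the product of Slamf1, and lack CD48 and CD244, while multipotent progenitors gain CD48 or CD244. A gate on c-Kit and Sca-1 alone therefore contains cells on both sides of that divide.

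The 7 genes lie side by side on chromosome 1 in the order Cd244, Ly9, Slamf7, Cd48, Slamf1, Cd84 and Slamf6, with 0 other measured genes between them (RefSeq gene order, assembly GRCm38.p6). RefSeq start regions were held for 6 of them, all but Ly9. The 250 bases before the start are shown for the 3 genes with the largest differences between groups, Cd48, Slamf7 and Slamf1, and for Slamf6, which differed least. Sequences run 5′ to 3′ in GRCm38.p6, and capitals mark the RUNX core letters TGTGGT.
Cd48, chr1:171681742-171681991, plus strand: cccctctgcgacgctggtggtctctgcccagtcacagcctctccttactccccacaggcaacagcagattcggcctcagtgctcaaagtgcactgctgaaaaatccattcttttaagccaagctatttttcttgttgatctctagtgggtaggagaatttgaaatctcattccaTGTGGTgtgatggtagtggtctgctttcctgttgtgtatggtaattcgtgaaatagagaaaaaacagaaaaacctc
Slamf7, chr1:171649000-171649249, minus strand: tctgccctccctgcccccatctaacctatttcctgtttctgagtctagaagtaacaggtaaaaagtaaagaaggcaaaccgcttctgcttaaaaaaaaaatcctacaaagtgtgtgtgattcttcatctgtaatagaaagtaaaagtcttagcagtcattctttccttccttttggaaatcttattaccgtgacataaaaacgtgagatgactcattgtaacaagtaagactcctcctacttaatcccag
Slamf1, chr1:171766882-171767131, plus strand: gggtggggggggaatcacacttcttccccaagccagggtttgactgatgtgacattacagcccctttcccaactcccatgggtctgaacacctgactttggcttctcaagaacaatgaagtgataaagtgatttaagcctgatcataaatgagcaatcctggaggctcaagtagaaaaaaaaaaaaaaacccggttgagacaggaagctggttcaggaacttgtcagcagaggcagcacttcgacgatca
Slamf6, chr1:171917212-171917461, plus strand: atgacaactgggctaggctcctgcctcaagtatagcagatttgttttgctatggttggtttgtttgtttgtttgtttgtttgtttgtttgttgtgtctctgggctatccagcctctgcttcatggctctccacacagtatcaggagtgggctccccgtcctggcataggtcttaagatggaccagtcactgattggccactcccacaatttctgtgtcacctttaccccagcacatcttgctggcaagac

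Both strands of these windows were searched for the ETS core letters CGGAAG, the RUNX core TGTGGT, the letters AGATAA bound by factors of the Gata family, and the E-box CACGTG. No match overlapped another. TGTGGT occurred once before Cd48, starting 76 bases ahead of the start, and once before Cd84, 45 bases ahead. CACGTG occurred once before Cd244, 64 bases ahead. No other match was found in the 6 windows, so Slamf1, Slamf6 and Slamf7 held 0. Of 32851 RefSeq start regions, 13.6% held CGGAAG in the same 250 bases, 14.0% TGTGGT, 9.99% AGATAA and 6.02% CACGTG. The matches are descriptions of letters, and the starts in the table need not be those used in these cells.

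Before the receptors, the targeted gene was read as a check of the labels. Alox15 had RMA values (log2) of 4.63 and 4.35 on the WT arrays and 10.68 and 10.75 on the arrays labelled Alox15-/-, the opposite of what the label states. No source used here places its probe set relative to the deleted part, so it may check nothing. Whether the labels of the groups were exchanged was not tested, and an exchange would reverse every direction below. Every direction below is that of the arrays as labelled. As a mark of background served the brightest of 27 control probe sets for Bacillus transcripts, called the bacterial ceiling below, which lay at 4.95 to 5.17.

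All 7 receptor genes had a positive difference, that is, a higher mean on the arrays labelled Alox15-/- than on WT, and none passed the test. Of all 18194 genes, 9784 had a positive difference. The receptors' differences ran from 0.03 to 0.43 on the log2 scale with a median of 0.21, beside a median of 0.02 over all 18194 genes tested. For 6 of the 7, all but Slamf6, both arrays labelled Alox15-/- read above both WT arrays. That was so for 21.4% of all genes, and 17.1% lay the other way round, where 0 of the 7 did. By limma with Benjamini-Hochberg adjustment over all genes, 0 of the 7 had an adjusted p under 0.05, as against 0.0055% of all genes (Alox15 alone). That 1 call was lost without variance moderation (limma adjusted p = 0.703) and in each fit without 1 array (limma adjusted p from 0.172 to 0.328). At an unadjusted limma p under 0.05 stood 2 of the 7, Cd48 and Slamf7, where 4.2% of all genes did so on the higher side. The genes share 4 arrays and are not independent of each other.

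**Figure D1:**
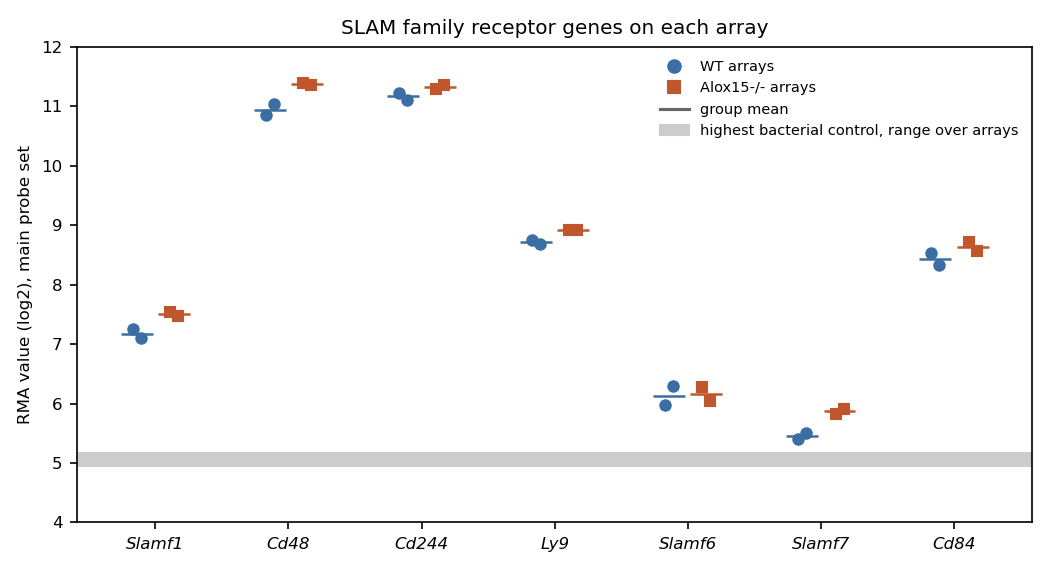
RMA value (log2) of the main probe set of each SLAM receptor gene on each array, with circles for WT and squares for the arrays labelled Alox15-/- and a line at each group mean. The grey band, 4.95 to 5.17, is the range of the bacterial ceiling over the arrays. Squares lie above circles for every gene but Slamf6, and heights are not comparable between genes because probes differ in response.

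Cd48, whose product marks progenitors that have left the long-term stem cell state, had the largest difference of the 7. It read 10.86 and 11.04 on the WT arrays and 11.40 and 11.36 on the arrays labelled Alox15-/-. The lowest of the latter was 0.33 above the highest WT array. The group means were 10.95 ± 0.12 and 11.38 ± 0.02 (SD, n = 2 each), a difference of 0.43 ± 0.14 (SE), or 1.35-fold, with a limma 95% interval of 0.09 to 0.78. Its limma adjusted p was 0.611 and its unadjusted limma p 0.0225, which uses a variance drawn towards that of all genes. Without variance moderation the unadjusted limma p was 0.040. The difference exceeded the SD of either group but did not pass the threshold over all genes tested.

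Slamf1 encodes CD150, the receptor carried by long-term stem cells. Its main probe set read 7.26 and 7.10 on the WT arrays and 7.53 and 7.47 on those labelled Alox15-/-, which again stood above both WT arrays, here by 0.22. The difference was 0.32 ± 0.14 (SE, n = 2 each), or 1.25-fold, with an interval of -0.02 to 0.66 and a limma adjusted p of 0.658. The other 2 probe sets of Slamf1 went in opposite directions. One read 5.41 and 6.23 on the WT arrays and 5.90 and 5.23 on those labelled Alox15-/-, a difference of -0.25. The other read 4.92, below the bacterial ceiling, and 5.46 on the WT arrays and 6.45 and 5.38 on those labelled Alox15-/-, a difference of 0.73. Both had groups that overlapped and spreads between replicates wider than that of the main probe set. Averaged over its 3 probe sets Slamf1 differed by 0.27 and its groups overlapped.

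The surface proteins of Cd48 and Slamf1 are used together to divide this gate, so the ratio of their RNA was followed within each array. Surface protein was not measured, and RNA need not follow it. Cd48 minus Slamf1 was 3.60 and 3.94 on the WT arrays and 3.87 and 3.89 on those labelled Alox15-/- (log2). Both arrays of the second group lay between the WT arrays. The mean shift of 0.11 was smaller than the WT spread (SD 0.24, n = 2) and ran from -0.06 to 0.28 when 1 array was left out. At the main probe sets, no unequal shift of the pair was therefore detectable with these arrays. With the mean over all probe sets of each gene the shift was 0.17. The other probe sets of Slamf1 differed by -0.25 and 0.73, so the shift depends on the probe set taken for Slamf1.

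Cd244 encodes the receptor that CD48 binds. Its main probe set read 11.23 and 11.11 on the WT arrays and 11.30 and 11.36 on those labelled Alox15-/-, with 0.06 between the nearest arrays of the groups. The difference was 0.16 ± 0.13 (SE), with an interval of -0.17 to 0.49 and a limma adjusted p of 0.807. It was 0.10 without WT replicate 2. A second probe set read 7.55 and 7.89 on the WT arrays and 7.80 and 7.51 on those labelled Alox15-/-, which overlapped, with a difference of -0.06. Over both probe sets Cd244 differed by 0.05 and its groups overlapped.

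Ly9 encodes CD229, a receptor that binds itself. It read 8.75 and 8.69 on the WT arrays and 8.92 and 8.91 on those labelled Alox15-/-, the tightest pairs among the 7 genes, and the groups stood 0.17 apart. The difference was 0.20 ± 0.13 (SE), with an interval of -0.12 to 0.52 and a limma adjusted p of 0.743. The interval is wider than the replicates alone would give because limma draws each gene's variance towards that of all genes.

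Cd84, another self-binding receptor, which platelets and mast cells also carry, read 8.54 and 8.33 on the WT arrays and 8.72 and 8.57 on those labelled Alox15-/-. The groups were separated by 0.03 only. The difference was 0.21 ± 0.15 (SE), with an interval of -0.16 to 0.58 and a limma adjusted p of 0.767, and it was 0.11 without WT replicate 2. Its second probe set pointed the other way, at 7.0 and 6.84 on the WT arrays and 6.74 on both arrays labelled Alox15-/-. That difference was -0.18, also without overlap, and over both probe sets Cd84 differed by 0.02.

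Slamf7 encodes CD319, best known from plasma cells, natural killer cells and dendritic cells. It read 5.41 and 5.50 on the WT arrays and 5.83 and 5.91 on those labelled Alox15-/-, which stood 0.33 above the WT arrays. All 4 values were above the bacterial ceiling but close to it, where RMA compresses differences. The difference was 0.42 ± 0.13 (SE), or 1.33-fold, with an interval of 0.09 to 0.74. Its limma adjusted p was 0.611 and its unadjusted limma p 0.0219.

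Slamf6 encodes Ly108, which lymphocytes carry. It was the 1 gene of the 7 whose groups overlapped, at 5.97 and 6.29 on the WT arrays and 6.28 and 6.04 on those labelled Alox15-/-. The difference was 0.03 ± 0.17 (SE), with an interval of -0.41 to 0.47 and a limma adjusted p of 0.976, and it turned to -0.13 without WT replicate 1 and to -0.09 without Alox15-/- replicate 1. The other 2 probe sets of Slamf6 read 3.21 to 4.99 and lay below the bacterial ceiling on all 4 arrays.

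Counted by probe set, 10 of the 13 had a positive difference and 3 a negative one. In 6 of the 13 the arrays labelled Alox15-/- stood above WT without overlap, against 21.3% of the 34958 probe sets with 1 symbol, and in 1 they stood below, against 17.2%. With each probe set as a unit limma called 0 of the 13, against 0.00572% of all. Of the 4 genes with several probe sets, Slamf1, Cd244 and Cd84 had probe sets of opposite sign. With the mean over probe sets as the value of a gene, the count without overlap was 4 of 7 (Cd48, Ly9, Slamf6 and Slamf7) in place of 6. The share of all genes under that setting is not given here, so the count has no background. Slamf6 entered it only through averaging with its probe sets below the bacterial ceiling. Every one of the 6 separated probe sets on the higher side was a main probe set.

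**Figure D2:**
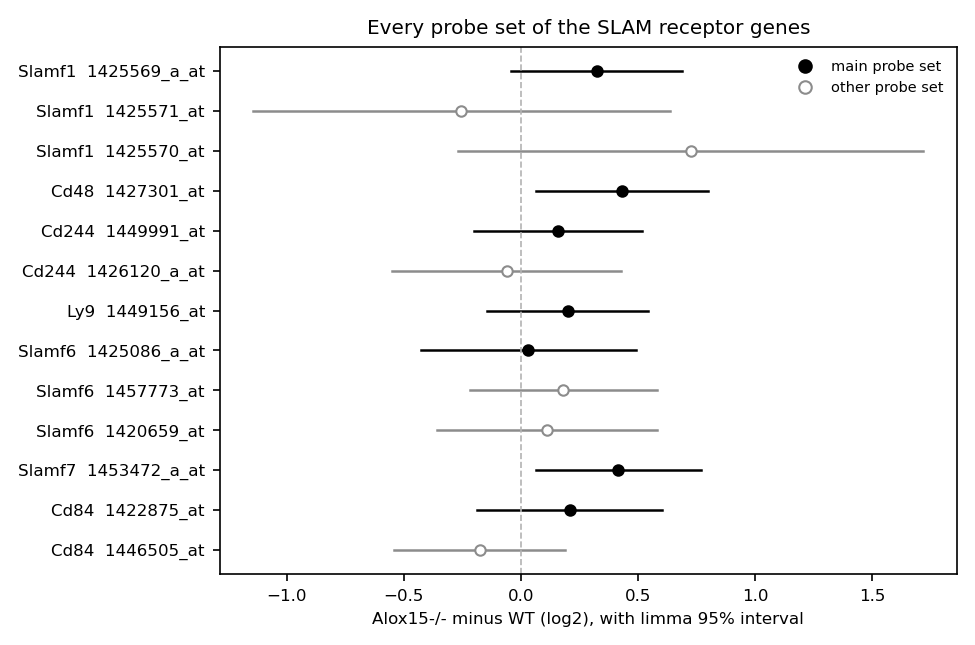
Difference between the arrays labelled Alox15-/- and WT (log2) at each of the 13 probe sets, with limma 95% intervals from the fit over all named probe sets. Filled points are main probe sets and open points the others. Intervals of Cd48 and Slamf7 lie above 0, those of the other 11 include it, and the 3 points below 0 are second probe sets of Slamf1, Cd244 and Cd84.

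The genes beside the SLAM block were set against it because the 7 receptors are contiguous. Of the 10 measured genes on each side, 11 had a positive difference and 9 a negative one, with a median of 0.00 and a range from -0.56 to 0.26. Groups did not overlap for 3 on the higher side and 4 on the lower, beside 21.4% and 17.1% of all genes, and 0 passed limma's threshold. Itln1, an intelectin gene and the nearest measured gene on the Cd244 side, read 5.34 and 5.25 on the WT arrays and 5.49 and 5.62 on those labelled Alox15-/-, a difference of 0.26. Vangl2, a planar cell polarity gene and the nearest on the Slamf6 side, differed by 0.10 with groups that overlapped, and its other 2 probe sets gave -0.07 and 0.25.

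**Figure D3:**
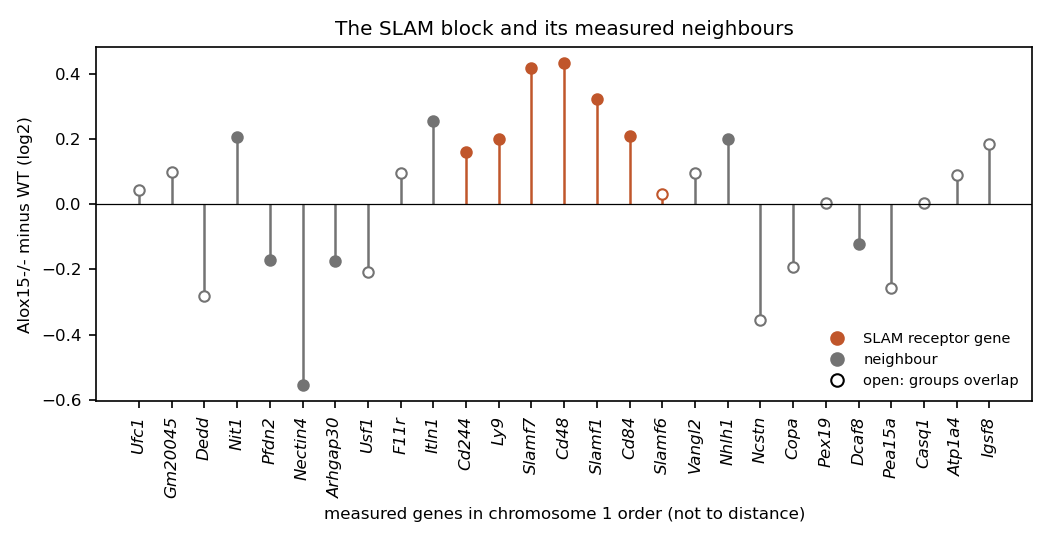
Difference between the arrays labelled Alox15-/- and WT (log2) for the 7 SLAM receptor genes and the 10 measured genes on each side, in chromosome order and not to distance. Open points are genes whose groups overlap. The receptors run from 0.03 at Slamf6 to 0.43 at Cd48, and the neighbours from -0.56 at Nectin4 to 0.26 at Itln1.

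The adaptors and enzymes that act below the receptors had differences of both signs. Of 15 measured genes of SLAM signalling, 7 had a positive and 8 a negative difference, with a median of -0.02, and 0 passed limma's threshold in either direction. Groups did not overlap for 0 on the higher and 3 on the lower side, beside 21.4% and 17.1% of all genes. These 3 were Ptpn6 and, named after their values were seen, the kinase gene Prkcq at -0.42 and the phospholipase gene Plcg1 at -0.28. Sh2d1a, the gene of the adaptor SAP, read 3.60 to 3.92 and lay below the bacterial ceiling on every array. The adaptor genes Sh2d1b1 and Sh2d1b2 share 1 probe set and were not separated, and Lyn and Lck were not analysed here. Fyn, the kinase that SAP brings to the receptors, differed by 0.12 with groups that overlapped, and by 0.022 to 0.21 with 1 array left out. Inpp5d, the inositol phosphatase SHIP-1, differed by 0.17, also with overlap, and by 0.046 to 0.29 with 1 array left out. Ptpn6, the phosphatase SHP-1, read 10.21 and 10.41 on the WT arrays and 10.09 and 10.13 on those labelled Alox15-/-, a difference of -0.20 without overlap, and -0.01 at its other probe set. Ptpn11, the phosphatase SHP-2, differed by 0.01 at its main probe set, with overlap. Another of its probe sets read 8.37 and 8.16 on the WT arrays and 8.81 and 8.67 on those labelled Alox15-/-, a difference of 0.47 without overlap, with a limma adjusted p of 0.615 over all probe sets. The third differed by 0.10, without overlap by a gap of 0.01. The remaining relatives of the CD2 family stood near background. Cd2, another receptor for CD48, differed by 0.24, but by 0.035 without WT replicate 2 and by 0.45 without WT replicate 1. Slamf8 differed by 0.18 and Slamf9 by -0.10. At their main probe sets, limma adjusted p for these genes of the adaptor and CD2 lists, without Prkcq and Plcg1, ran from 0.764 to 0.995.

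Genes that mark the ends of the gate were read beside the SLAM receptors. Kit, part of the sort itself, read 10.63 and 10.48 on the WT arrays and 10.34 and 10.23 on those labelled Alox15-/-. Ly6a, the gene of Sca-1, was not analysed here. Of 10 measured long-term stem cell genes, 8 had a negative difference and the median was -0.28, with 0 past limma's threshold. Groups did not overlap for 5 on the lower side, where 17.1% of all genes stood, and for 1 on the higher side, Esam at 0.18, where 21.4% did. Hlf, a transcription factor of stem cells, differed by -0.77 ± 0.13 (SE) with a limma adjusted p of 0.389, and Procr, the stem cell receptor EPCR, by -0.25. Of 7 measured multipotent progenitor genes, 4 were positive and 3 negative with a median of 0.05. Without overlap stood 2 on the higher side, Cdk6 at 0.28 and Dntt at 0.21, and 2 on the lower, Cd27 at -0.08 and Satb1 at -0.04, beside the same 21.4% and 17.1%. Esam and these 4 were named after their values were seen. Flt3, the cytokine receptor of lymphoid-primed progenitors, differed by -0.03 and Cd34 by 0.06, both with overlap.

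Genes listed as markers of other blood cells were read on the same arrays, though the sorted cells may express some of them too. The 6 measured neutrophil markers, S100a8 and S100a9 among them, were all higher without overlap, as were 21.4% of all genes. The markers' median difference was 1.29. Their mean relative to all arrays was -1.05 and -0.14 on the WT arrays and 0.81 and 0.38 on the arrays labelled Alox15-/-. The mean of the 7 SLAM receptors was -0.13 and -0.12 on the same WT arrays and 0.15 and 0.10 on the others. Of 6 mast cell and basophil markers 5 were positive, with a median of 0.65, and their mean was 0.15 and -0.64 on the WT arrays and 0.12 and 0.38 on those labelled Alox15-/-. Of 7 monocyte and macrophage markers 5 were positive, with a median of 0.34 and means of -0.55 and -0.03 in WT against 0.60 and -0.02. Without overlap, 3 mast cell markers were higher and 0 lower, and 2 monocyte markers were higher and 1 lower. Of all genes 21.4% and 17.1% did so, and 9784 of 18194 had a positive difference. At or below the bacterial ceiling on all arrays were 1 of 6 neutrophil, 1 of 6 mast cell and 1 of 7 monocyte markers.

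Lymphoid and other blood cell markers had differences of both signs. Of 6 T cell markers 3, of 4 NK cell markers 2, of 4 dendritic cell markers 2 and of 5 B cell markers 1 lay below the bacterial ceiling on all arrays, and the lists' median differences were 0.10, -0.02, 0.18 and 0.12. Higher without overlap were 4 T cell, 1 NK cell, 1 dendritic cell and 1 B cell marker, beside 21.4% of all genes. Lower without overlap were 2 T cell markers and 0 of the other 3 lists, beside 17.1%. These 2 were Cd4 at -0.18 and Cd5 at -0.21, the latter below the ceiling on all arrays. Among the NK cell markers Gzma differed by -0.45 with overlap. All named after their values were seen, 3 markers of these lists above the ceiling on all arrays were higher without overlap by more than 0.5. Jchain, the antibody joining chain gene listed for B cells, read 6.37 and 6.24 on the WT arrays and 6.86 and 7.75 on those labelled Alox15-/-, a difference of 1.00 (limma adjusted p = 0.589). Nkg7, a granule gene listed for NK cells, which also carry SLAMF7, differed by 0.51 (limma adjusted p = 0.575). Cd8a, a T cell coreceptor gene, differed by 0.54 (limma adjusted p = 0.686). The median was 0.05 over 6 platelet and megakaryocyte markers, which ran both ways. Also named after their values were seen, Ppbp differed by -1.65 without overlap, with 1 array above the ceiling, Pf4 by -0.47 with overlap and Itga2b by 0.25 without overlap. Over 4 erythroid markers the median was -0.08. Of all these marker genes 0 passed limma's threshold. The Gapdh control probe sets at the 3′ and 5′ ends of the transcript differed by 2.37 and 2.39 on the WT arrays and by 2.14 and 2.17 on those labelled Alox15-/- (log2), which separated the same groups. Whether the marker signals came from other cells or from the sorted cells themselves was not tested. The part of other cells and of the Gapdh gap in the SLAM differences was not tested either.

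**Figure D4:**
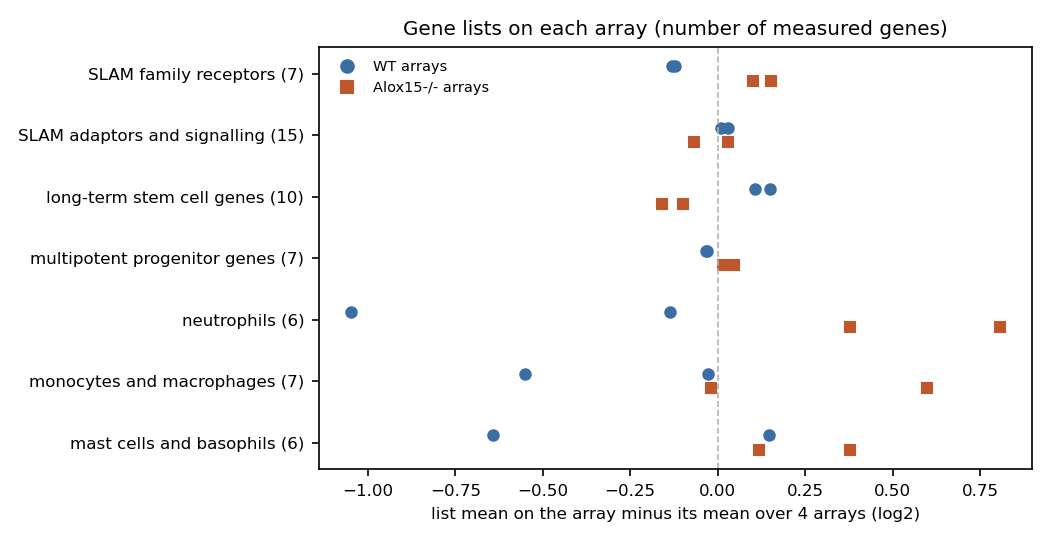
Mean level of selected gene lists on each array minus the list's mean over the 4 arrays (log2). Measured genes are counted in parentheses, with circles for WT and squares for the arrays labelled Alox15-/-. The marker lists shown are those with the largest median differences, and the other marker lists, the CD2 relatives and the chromosome 1 neighbours are left out. The SLAM receptors lie at -0.13 and -0.12 on the WT arrays and at 0.15 and 0.10 in the other group, and the neutrophil markers at -1.05 and -0.14 against 0.81 and 0.38.

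Likeness of pattern was measured as the Euclidean distance between log2 profiles over the 4 arrays, each gene's mean removed. Nearest to Cd48 were Rad18, Iqcg and Rasgrp2 at distances of 0.01, 0.02 and 0.02, with differences of 0.45, 0.41 and 0.45. Nearest to Slamf1 were Prl2b1, Ndufv1 and Vmn1r65, each at 0.02, with differences of 0.33, 0.32 and 0.31. Prl2b1 lay below the bacterial ceiling on all 4 arrays. With 4 arrays among 18194 genes, such close matches are described and carry no test.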

How the data were processed

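RNA from 4 samples of sorted mouse bone marrow cells was read on Affymetrix arrays. Per the submitters' processing notes, the deposited log2 values come from RMA in Affymetrix Expression Console 1.1, a method that corrects background, equalises the arrays' distributions by quantiles and summarises probe sets. This compresses differences near background. No counts exist and 2 arrays per group limit the precision. Per the labels' protocols targets came from a whole-transcript sense labelling kit. The sources used here do not say how that fits the array's probe set design. Groups came from the sample titles.

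Of 45101 probe sets, 34958 had 1 symbol in the platform annotation, 932 several and 9211 none, and 34754 matched RefSeq gene identifiers. The contrast, arrays labelled Alox15-/- minus WT, was fitted across all genes with limma 3.58.1 in R 4.3.3 (lmFit, eBayes, two-sided, no block, threshold 0.05 after Benjamini-Hochberg adjustment). The code was tested on simulated data with shifts larger than any SLAM difference here. That test does not show whether shifts as small as the SLAM differences would be called. No filter on dim genes was used. An exact permutation test of 2 against 2 arrays cannot go below 0.333 and was not run. Named genes were the members, fixed pathway and gate genes, block neighbours and nearest profiles. The members and lists were chosen with earlier results of these data known, and the promoter motifs after the values were seen. Alternatives changed normalization, filtering, moderation, array weights, probe set choice, the replicate block and single arrays. Figures used matplotlib 3.10.9.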

Additional observations from a re-analysis of the deposited data

How the results depend on the processing

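Over 15 other settings, limma called 0 of the 7 SLAM receptor genes, also at an adjusted p under 0.10. It called 0 of their probe sets in each of these settings that was run on single probe sets. With 1 array left out the lone array is assumed to vary like the other group. Cd48 ran from 0.35 to 0.52, Slamf7 from 0.37 to 0.46 and Slamf1 from 0.25 to 0.40 in such fits, and the median over the 7 genes from 0.19 to 0.31. Slamf6 ran from -0.13 to 0.19, with -0.13 without WT replicate 1 and -0.09 without Alox15-/- replicate 1. Ptpn11 ran from -0.064 to 0.074 and Flt3 from -0.090 to 0.023 in such fits, changing sign. Ptpn6 ran from -0.30 to -0.10 and Cd2 from 0.035 to 0.45, with 0.035 without WT replicate 2. A mean-dependent prior variance called 1 context gene, Hlf (limma adjusted p = 0.0114), and brought the adjusted p of Cd48 to 0.233, the lowest over its alternatives, which reached 0.952. Leaving out the dimmest 50 percent of genes removed Slamf6 and Slamf7. The titles number replicates 1 and 2 in both groups. With the replicate block Cd48 stayed at 0.43 (limma adjusted p = 0.659) and 0 receptor genes were called. Deviations of same-numbered arrays correlated at r = -0.02 across genes, so the numbers were not taken as pairs.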
